A study of Homo sapiens with 24 samples.

Results

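The acute effect of enzalutamide (ENZ) on open chromatin was examined in parental LNCaP cells, using the 3 FAIRE-seq libraries of cells given 10 µM ENZ and the 3 of cells given the solvent, DMSO. These 6 libraries, of 24 in the series, were chosen by their titles and treatments. LNCaP is an established human prostate cancer cell line that depends on androgen, and the series also holds RES-A, a derivative of it that is resistant to ENZ. Both groups were grown for 3 days without ENZ in RPMI containing 5% serum that had been stripped with charcoal, and so held little steroid hormone, before 18 h of treatment. The comparison therefore asks what ENZ added to androgen starvation, since neither group was given an androgen. The other treatments were 10 nM dihydrotestosterone (DHT, an androgen) and DHT together with ENZ, and RES-A received the same 4 treatments after 3 days in the same medium with 10 µM ENZ. All 8 groups had 3 libraries, described as biological triplicates of the cell line in culture.

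The androgen receptor is a transcription factor that binds DHT, moves to the nucleus and occupies enhancers, many of which become more accessible when it binds. ENZ competes with androgens for the ligand-binding domain of the receptor and hinders its nuclear entry and its binding to DNA. FAIRE-seq isolates regulatory elements with the help of formaldehyde: chromatin is cross-linked, sheared and extracted with phenol, and the DNA left in the water phase, which is poor in nucleosomes, is sequenced. Its peaks mark promoters, enhancers and other accessible sites without naming the factor bound there.

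The 6 libraries differed widely in depth, and 1 stood apart. The background that the peak caller used, which ranks the libraries by depth, was 2.58, 4.84 and 1.95 reads per base in DMSO replicates 1, 2 and 3 and 0.41, 3.80 and 4.45 reads per base in ENZ replicates 1, 2 and 3. ENZ replicate 1 was the shallowest of all 24 libraries. On chromosomes 1 to 22, X and Y the DMSO lists held 193933, 261178 and 128800 peaks and the ENZ lists 72950, 222554 and 217078. The means were 194637 ± 66192 peaks with DMSO and 170861 ± 84837 with ENZ (SD, n = 3 each), a difference well within the spread of either group (exact two-sided permutation p = 0.70, where 3 against 3 libraries cannot go below 0.1). The direction turned without ENZ replicate 1, when the ENZ mean lay above the DMSO mean by 25179 peaks, and also without DMSO replicate 2, by 9494. The number of peaks was therefore matched, wherever top-ranked peaks are named, by taking the 50000 of each library with the highest -log10 p. This did not level the depth, since the lowest -log10 p among these peaks was 5.35 in ENZ replicate 1 and 10.3 to 28.5 in the other 5 libraries, and their median length was 163 bp against 297 to 428 bp. Comparisons of fold enrichment used peaks of any rank. Of the top-ranked peaks of ENZ replicate 1, 30.4% overlapped no top-ranked peak of the other 5 libraries, against 3.26% to 7.43% for each of those. The main results below are given with and without this library.

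**Figure D1:**
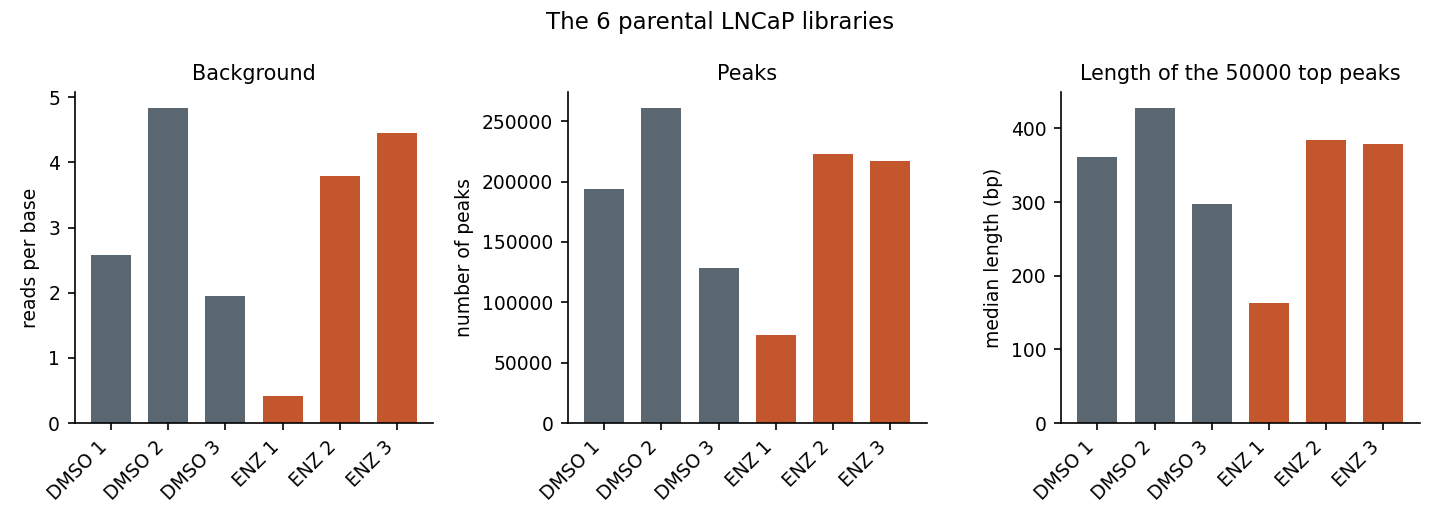
Background in reads per base, number of peaks and median length in bp of the 50000 top-ranked peaks, 1 bar per library, DMSO grey and ENZ orange. ENZ replicate 1 is lowest in all 3 panels, at 0.41 reads per base, 72950 peaks and 163 bp, and the other 2 ENZ libraries lie within the range of the 3 DMSO libraries.

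ENZ did not separate the libraries as wholes. The base-pair Jaccard index (the base pairs that 2 peak sets share over all those either covers) averaged 0.461 ± 0.171 (SD) over the 6 pairs of libraries with the same treatment and 0.479 ± 0.168 over the 9 pairs of an ENZ with a DMSO library. The share of variance in 1 minus the index that treatment took up, R2, was 0.172 (permutational analysis of variance on distances, exact permutation p = 0.90). Without ENZ replicate 1 the averages were 0.568 ± 0.060 over 4 pairs of the same treatment and 0.587 ± 0.049 over 6 pairs of different treatments (R2 = 0.232, exact permutation p = 0.70). The most alike pair was 1 of each treatment, DMSO replicate 2 and ENZ replicate 2, with an index of 0.640. Within the regions where all 6 libraries had a peak, the peak summits of 2 libraries lay a median of 17 to 23 bp apart in pairs without ENZ replicate 1, whether the treatment was the same or not.

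**Figure D2:**
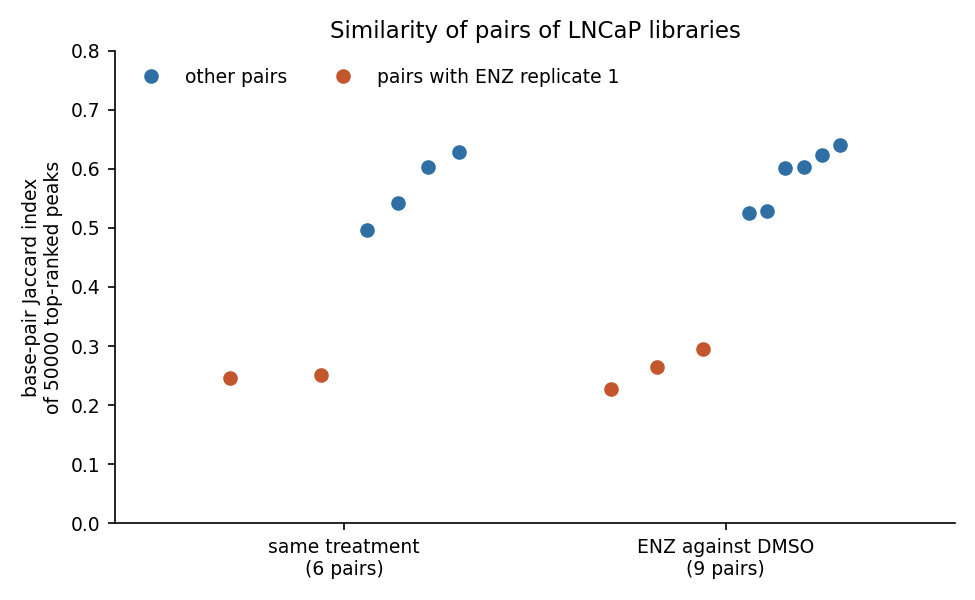
Base-pair Jaccard index of the 50000 top-ranked peaks for each pair of libraries, with pairs that include ENZ replicate 1 in orange and all others in blue. The 5 pairs with ENZ replicate 1 lie between 0.227 and 0.295 and the 10 others between 0.497 and 0.640, and pairs of the same and of different treatments cover like ranges.

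Sites that ranked high in the DMSO lists were called again in the ENZ lists more often than those that ranked low. A cutoff on rank gives such an order in any further library, so the order itself does not describe ENZ. Merging the top-ranked peaks of the 6 libraries by an overlap of at least 1 bp gave 86433 regions (383 bp long at the median), of which 22012 (25.5%) had a top-ranked peak in all 6 libraries. The regions that had one in all 3 DMSO libraries were divided into 5 equal groups of 6977 or 6978 by their mean rank in the DMSO lists. In the strongest of these groups, 94.6%, 99.99% and 100% had a top-ranked peak in ENZ replicates 1, 2 and 3. In the weakest these shares were 42.9%, 80.0% and 79.1%, and over all deposited peaks, whatever their rank, they were 53.5%, 99.97% and 99.97%. A peak of some rank is common in lists of this length: of the regions that were top-ranked in 1 DMSO library alone, 99.9% to 100% had a peak of some rank in at least 1 of the other 5 libraries.

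Few regions were called in 1 treatment and not in the other. A top-ranked peak was present in 3 of 3 DMSO libraries and 0 of 3 ENZ libraries in 541 regions, 0.626% of all, and in 3 of 3 ENZ libraries and 0 of 3 DMSO libraries in 178, 0.206% of all. Without ENZ replicate 1 the counts were 823 and 829 of 71222 regions, 1.16% of all in both directions, so the excess of DMSO-only regions rested on the shallow library. None of these regions lacked a peak in every deposited list of the other treatment. Of the 541 DMSO-only regions, 98 had a peak of some rank in 3 ENZ libraries, 440 in 2 and 3 in 1. Of the 178 ENZ-only regions, 161 had a peak of some rank in 3 DMSO libraries and 17 in 2.

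The 5 DMSO-only regions with the highest mean rank in the DMSO lists are given as examples, and their lower ENZ values follow from how they were chosen. Positions are those of the hg19 assembly. At chr3:65817000-65817364 the fold enrichment over background was 7.52, 7.79 and 6.83 in DMSO replicates 1 to 3 and 4.74 and 4.04 in ENZ replicates 2 and 3, with no peak in ENZ replicate 1. At chr6:131869550-131870157 it was 8.70, 11.3 and 7.52 with DMSO and 3.66, 6.46 and 5.24 with ENZ, and this was the only one of the 5 with a peak in ENZ replicate 1. The other three, chr11:115791839-115792290, chr6:130329212-130329663 and chr2:36660488-36660928, had fold enrichments of 8.03 to 12.4 with DMSO and of 4.77 to 7.09 in ENZ replicates 2 and 3.

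The 5 leading ENZ-only regions were chosen in the same way, by their rank in the ENZ lists. At chr9:93633262-93633685 the fold enrichment was 6.11, 5.38 and 4.70 with DMSO and 6.35, 8.02 and 7.30 with ENZ. At chr15:72127363-72127696 it was 3.90, 5.15 and 4.88 with DMSO and 7.51, 5.69 and 5.59 with ENZ. At chr12:120966880-120967169 it was 5.15, 6.26 and 4.74 with DMSO and 6.54, 6.72 and 5.97 with ENZ, so that the groups overlapped. At chr9:74706499-74706848 and chr2:120932616-120932926 the DMSO values ran from 4.74 to 7.37 and the ENZ values from 6.24 to 9.63. Every DMSO library listed a peak at each of the 5 regions, and the DMSO ranks there began at 50927, just outside the 50000 that were counted.

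No single region passed a test between the treatments. Fold enrichment was compared by limma on the log2 scale, after quantile normalization, in the 45628 regions with a peak of any rank in all 6 libraries. None had a Benjamini-Hochberg adjusted p under 0.05 (0% of regions, smallest adjusted p = 0.980), and 1407 regions (3.08%) had an unadjusted p under that value, 684 higher and 723 lower with ENZ. The ENZ minus DMSO difference had a median of 0.0018 and ran from -0.92 to 0.96, with 5% of regions below -0.35 and 5% above 0.34. Its standard error had a median of 0.19, so that the 95% interval of a typical region reached 0.41 to either side of its difference. In 96.5% of the regions the interval lay wholly between -1 and 1. Differences under about 0.41 on the log2 scale could thus not be told from 0 in a typical region, even before adjustment. After adjustment over all regions the largest differences, -0.92 and 0.96, were not called either. Without ENZ replicate 1 the number of regions with a peak in every library rose to 100301, and limma again called none (0%, smallest adjusted p = 0.996, with 4683 regions, 4.67%, at an unadjusted p under 0.05). The normalized values of the groups did not overlap in 2140 regions with all ENZ libraries above all DMSO libraries (4.69% of regions) and in 2138 with all below (4.69%). The corresponding counts with ENZ replicate 1 left out were 10213 (10.2%) and 10036 (10%) of 100301.

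The same test was applied to other comparisons of the series. In parental LNCaP, DHT against the same DMSO libraries gave 0 of 55393 regions with a limma adjusted p under 0.05 (0%, smallest adjusted p = 0.066), and 7571 (13.7%) had an unadjusted p under that value. DHT against DMSO in RES-A gave 10638 of 105483 regions with a limma adjusted p under 0.05 (10.1%), 6546 higher (6.21%) and 4092 lower (3.88%). For DHT and ENZ against DHT alone in parental LNCaP limma called 0 of 60277 regions (0%, smallest adjusted p = 0.151), where 6424 (10.7%) had an unadjusted p under 0.05. Both LNCaP comparisons include another shallow library, DHT replicate 1, with a background of 0.74 reads per base.

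The regions with the smallest limma p and no overlap between groups are given as a description, since none passed the threshold. The lowest p among regions higher with ENZ was at chr14:38176892-38177237, where fold enrichment was 3.02, 2.996 and 2.98 with DMSO and 5.11, 4.81 and 5.11 with ENZ. Its log2 difference after normalization was 0.89 ± 0.18 (SE, limma adjusted p = 0.980). The next were chr15:56577599-56578387, chr5:67456641-67457078, chr2:84529932-84530428 and chr11:82916372-82917042, with log2 differences of 0.68 to 0.73. At chr15:56577599-56578387 fold enrichment was 4.14, 5.02 and 3.72 with DMSO and 5.44, 7.39 and 5.77 with ENZ. Among these 5 regions 6.14 was the highest DMSO value, and the ENZ values ran from 4.81 to 8.14.

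The regions with the smallest p that were lower with ENZ had higher DMSO values, which follows in part from choosing regions by direction. Their ENZ values ran from 3.35 to 6.67. At chr17:4316559-4316852 fold enrichment was 9.78, 8.05 and 8.13 with DMSO and 3.56, 5.21 and 4.04 with ENZ, and the log2 difference was -0.90 ± 0.19 (SE, limma adjusted p = 0.980). At chr15:77994916-77995220 it was 7.82, 8.40 and 7.45 with DMSO and 3.56, 5.21 and 3.86 with ENZ. The other three, chr5:1162024-1162347, chr12:105603275-105603780 and chr19:39921302-39921713, had log2 differences of -0.82, -0.67 and -0.89. ENZ replicate 1 gave the lowest of the 6 values at 4 of these 5 regions, the exception being chr5:1162024-1162347 with 4.27 in that library and 3.86 in ENZ replicate 3. With the libraries left out one at a time, the smallest difference at any of these 10 regions was 0.61 in size. The regions were chosen from these same libraries for a small p and no overlap, so this follows in part from the choice.

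Regions called with DHT and not without it in RES-A were examined next, a list that shares no library with the comparison. The list does not show opening with DHT in LNCaP, where limma called 0 of 55393 regions for DHT against DMSO. In RES-A, 4148 of 73799 merged regions (5.62%) had a top-ranked peak in all 3 DHT libraries and in none of the 3 DMSO libraries, termed DHT-opened. A further 2517 (3.41%) showed the reverse, termed DHT-closed, and 29557 were called in all 6. RES-A cells had been kept in ENZ before both treatments. A top-ranked peak was found at 40.3%, 40.7% and 35.9% of the DHT-opened regions in LNCaP DMSO replicates 1 to 3 and at 22.5%, 30.4% and 31.1% in ENZ replicates 1 to 3. Every ENZ library lay below every DMSO library, and the means were 39.0% ± 2.6 and 28.0% ± 4.8 (SD, n = 3 each). With ENZ replicates 2 and 3 alone the ENZ mean was 30.8%, 8.20 percentage points below that of DMSO. The background of these libraries, in the same order, was 2.58, 4.84 and 1.95 reads per base with DMSO and 0.41, 3.8 and 4.45 with ENZ. In the RES-A libraries that define the list it was 1.99, 1.81 and 3.16 with DHT and 2.72, 3.5 and 3.49 with DMSO. The part of depth in the list and in the shares was not tested.

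The regions that DHT did not open in RES-A showed no such difference in the deeper libraries. At the 29557 regions called under both RES-A treatments the shares were 83.0%, 82.3% and 82.3% with DMSO and 64.2%, 82.5% and 82.4% with ENZ, so that ENZ replicate 1 alone was low. At the DHT-closed regions they were 38.4%, 36.5% and 34.8% with DMSO and 27.3%, 39.8% and 39.8% with ENZ. There ENZ replicates 2 and 3 lay above all 3 DMSO libraries, by 3.22 percentage points on average, and ENZ replicate 1 lay below them. Counted over all deposited peaks instead, the DHT-opened regions held a peak at 87.1%, 91.2% and 76.1% with DMSO and at 30.5%, 86.4% and 84.0% with ENZ, so the difference between the deeper ENZ libraries and DMSO replicates 1 and 2 was narrower in presence than in rank, and DMSO replicate 3 was the lowest of these.

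**Figure D3:**
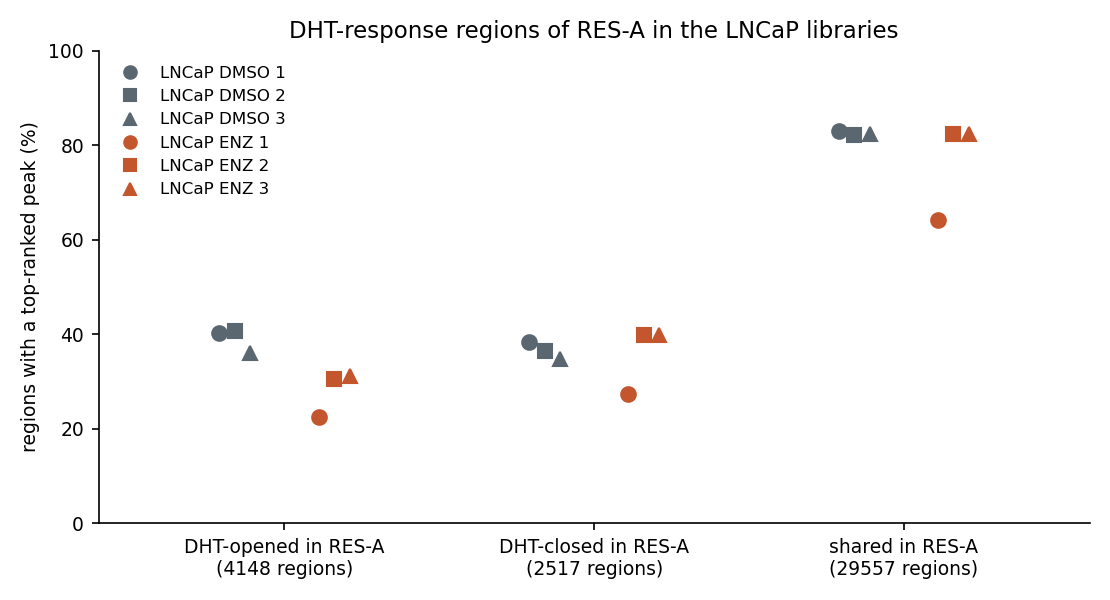
Percentage of the DHT-opened, DHT-closed and shared regions of RES-A that had a top-ranked peak in each LNCaP library, DMSO grey and ENZ orange, with circles, squares and triangles for replicates 1, 2 and 3. At DHT-opened regions all ENZ libraries (22.5% to 31.1%) lie below all DMSO libraries (35.9% to 40.7%), and at shared regions only ENZ replicate 1 lies apart, at 64.2%.

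The fold enrichment at these regions moved by small amounts in the same sense. Of the DHT-opened regions 1185 were among those tested by limma, and the median ENZ minus DMSO difference was -0.088 on the log2 scale, against 0.0018 over all 45628. The difference was below 0 in 65.7% of them and in 49.7% of all, none was called by limma (0% of all regions), and 52 (4.39%, against 1.09% of all) were lower by over 0.5. Relative to the DMSO mean, the median over these regions was 0.0084, 0.036 and -0.039 in DMSO replicates 1 to 3 and -0.076, -0.093 and -0.097 in ENZ replicates 1 to 3. All 3 ENZ libraries were thus below the DMSO libraries, the shallow one included. All ENZ values lay below all DMSO values in 151 of the 1185 (12.7%) and above them in 34 (2.87%), against 4.69% of all regions in each direction. Over the 5 other libraries, 2953 regions could be compared and the median was -0.11, with 68.8% below 0. There all ENZ values lay below all DMSO values in 23.7% and above them in 4.44%, against 10% and 10.2% of all regions. The median with 6 libraries was -0.13 with log2 pileup in place of fold enrichment and -0.061 with median centring. It was -0.16 with regions that had a peak in at least 3 libraries, where uncalled values were set to the lowest of the library. With each library left out in turn it ran from -0.11 to -0.063. At DHT-closed regions the median was 0.040 over 826 regions and 0.051 over 1767 without ENZ replicate 1. With the RES-A regions that passed limma for DHT in place of these lists, the medians were -0.085 over 1891 regions raised by DHT and 0.039 over 1170 lowered by it, and -0.083 and 0.060 without ENZ replicate 1.

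The difference was largest in the regions that DHT had raised most in RES-A. Among regions that DHT had raised by over 1 on the log2 scale in RES-A, the median ENZ minus DMSO difference in LNCaP was -0.14 (379 regions, 74.4% below 0). It was -0.067 among 1716 regions raised by 0.5 to 1 and -0.0030 among 16837 raised by less. Regions lowered by up to 0.5 had a median of -0.0030, the 1485 lowered by 0.5 to 1 had one of 0.041, and the 23 lowered by more had one of 0.026. In the most strongly raised group the library medians relative to the DMSO mean were 0.020, 0.032 and -0.038 with DMSO and -0.13, -0.17 and -0.12 with ENZ. Leaving out ENZ replicate 1, the median there was -0.16 over 935 regions, 77.8% of them below 0. Over single regions the relation was weak, with a Spearman correlation of -0.051 over 39476 regions and of -0.11 over 74437 without ENZ replicate 1. These regions share their libraries and are not replicates, and the spread within each group of regions was wider than the shift.

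**Figure D4:**
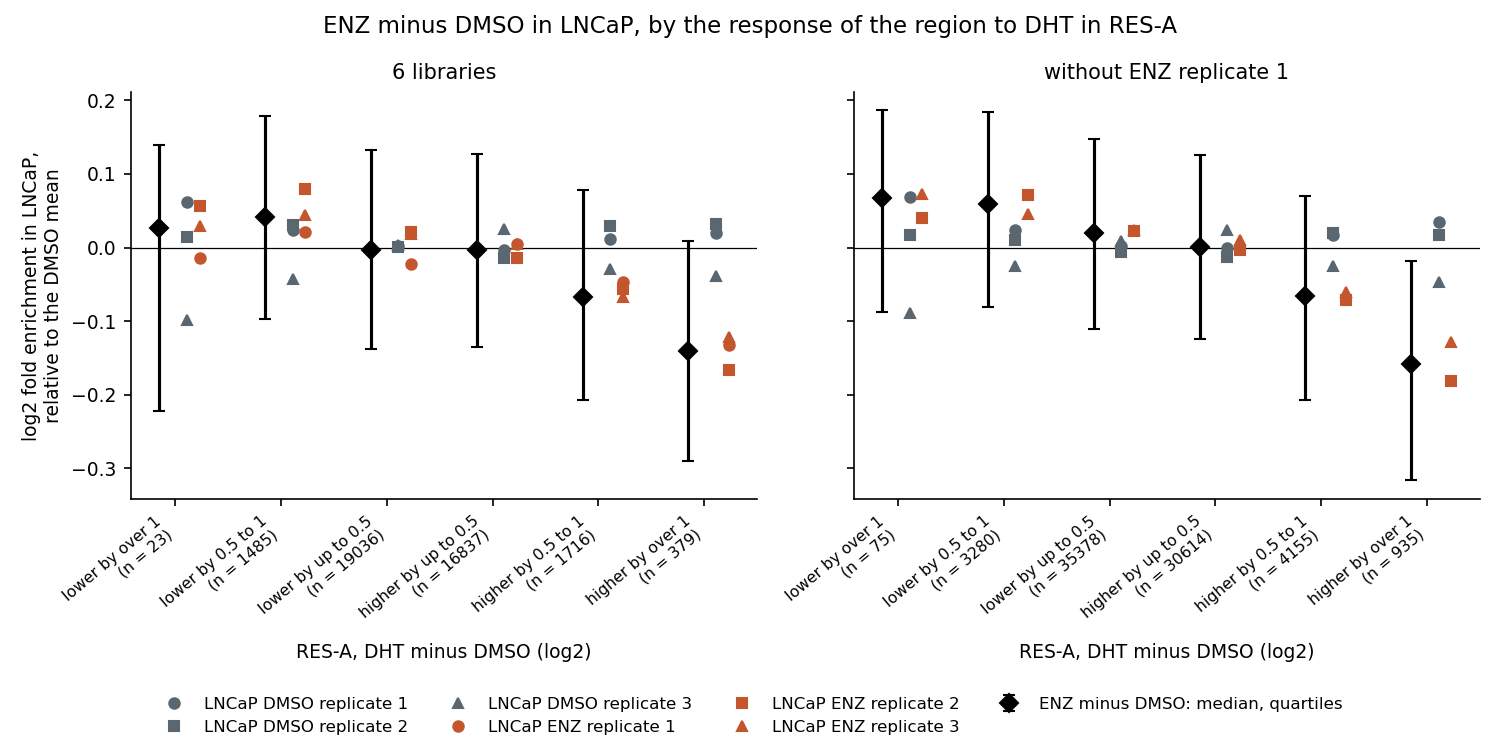
ENZ minus DMSO difference in LNCaP (log2 fold enrichment) for regions grouped by their DHT minus DMSO difference in RES-A, as median and quartiles (black) and as the median of each library relative to the DMSO mean (grey DMSO, orange ENZ). The medians fall to -0.14 with all 6 libraries and to -0.16 without ENZ replicate 1 in regions that DHT raised by over 1, where every ENZ library lies below every DMSO library.

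The DMSO-only regions met the DHT-opened list more often than the ENZ-only regions did. Of the 541 DMSO-only regions, 67 (12.4%) overlapped a DHT-opened region of RES-A, which is 1.62% of that list, against 2383 of all 86433 merged regions (2.76%). Of the 178 ENZ-only regions 2 did (1.1%). The DHT-closed list was met by 4 DMSO-only regions (0.739%), 5 ENZ-only regions (2.81%) and 1.70% of all merged regions. When ENZ replicate 1 was left out, the DHT-opened list was met by 103 of 823 DMSO-only regions (12.5%), 6 of 829 ENZ-only regions (0.724%) and 2245 of all 71222 merged regions (3.15%). A top-ranked peak was found in RES-A at 51.0%, 50.6% and 52.3% of the DMSO-only regions with DHT, at 36.0%, 37.0% and 33.1% with DMSO and at 33.3%, 36.2% and 30.1% with ENZ. The ENZ-only regions had one at 32.4% ± 1.4 with DHT and 35.8% ± 4.1 with DMSO, and the regions called in all 6 LNCaP libraries at 85.5% ± 0.8 and 86.7% ± 0.3 (SD, n = 3 each). In LNCaP itself the DMSO-only regions had a top-ranked peak at 59.3% ± 6.2 with DHT and at 62.9% ± 1.2 with DHT and ENZ together, and the ENZ-only regions at 36.5% ± 3.1 and 40.4% ± 5.9 (SD, n = 3 each).

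The 67 shared regions are illustrated by the 5 that ranked highest in the DMSO lists, which were chosen after their values were seen. By their choice, all 67 had a top-ranked peak in every LNCaP DMSO library and in no LNCaP ENZ library. Each also overlapped a region with one in every RES-A DHT library and in no RES-A DMSO library. The first, chr3:65817000-65817364, is given above for LNCaP. In RES-A its fold enrichment was 4.10, 3.21 and 4.42 with DMSO, 9.72, 9.42 and 8.97 with DHT and 4.90, 4.07 and 4.36 with ENZ. On this scale, which is not normalized between libraries, the LNCaP DMSO values lay between those of RES-A with and without DHT. Low values in both LNCaP ENZ and RES-A DMSO follow from the choice of regions. In LNCaP given DHT this region had 5.65, 8.97 and 6.98, overlapping its LNCaP DMSO values, as was so at all 5 regions. At chr3:188409964-188410342 it was 7.54, 8.11 and 7.62 in LNCaP with DMSO and 4.39 and 4.27 in ENZ replicates 2 and 3, while RES-A had no peak with DMSO in any library and values of 10.1, 8.65 and 10.6 with DHT. The other three were chr7:137266386-137266669, chr1:116715226-116715650 and chr20:37628771-37629193, with LNCaP values of 6.69 to 10.0 for DMSO and of 3.47 to 5.77 for ENZ replicates 2 and 3. In ENZ replicate 1 none of the 5 had a peak.

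**Figure D5:**
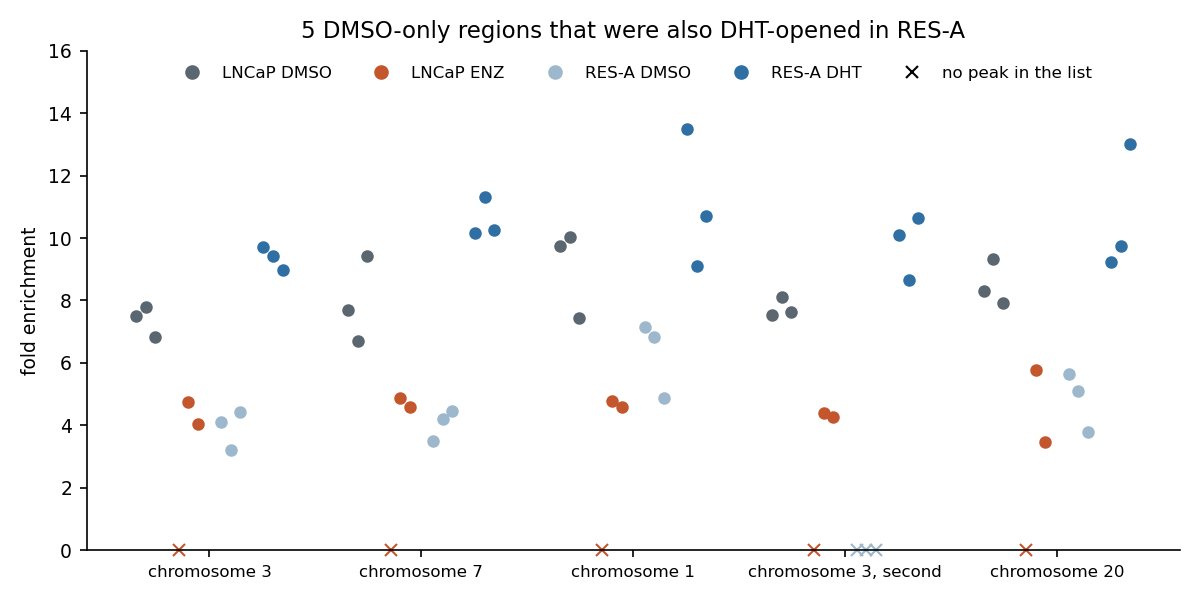
Fold enrichment at 5 regions in each LNCaP DMSO (dark grey), LNCaP ENZ (orange), RES-A DMSO (light blue) and RES-A DHT (dark blue) library, with crosses at 0 for libraries that list no peak. LNCaP DMSO values lie between 6.69 and 10.0, above the ENZ values of the same region, and RES-A DHT values lie between 8.65 and 13.5. The regions were chosen by top-ranked peaks in LNCaP DMSO and RES-A DHT and none in LNCaP ENZ and RES-A DMSO, so this order follows from the choice.

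Regions called in only 1 of the groups given DHT with or without ENZ gave a mixed picture, and limma had called no region for that comparison. In LNCaP, 1126 of 80961 regions (1.39%) had a top-ranked peak in all 3 DHT libraries and in none of those given DHT and ENZ, and 1055 (1.3%) showed the reverse. The former had a top-ranked peak at 11.9%, 11.6% and 12.4% with DMSO and at 11.8%, 8.53% and 8.17% with ENZ alone. ENZ replicates 2 and 3 were lower than each DMSO library and ENZ replicate 1 was not. The median log2 difference was -0.011 over 168 regions with all libraries and -0.11 over 706 without ENZ replicate 1. The latter had a top-ranked peak at 74.0%, 80.4% and 63.8% with DMSO and at 41.8%, 82.1% and 78.6% with ENZ, with overlapping groups and median differences of 0.033 and 0.064. These lists depend on the shallow DHT replicate 1, so that weak sites missing from it could not be called open with DHT. Over single regions, the ENZ minus DMSO difference had a Spearman correlation of -0.029 with that of DHT and ENZ minus DHT over 31998 regions and of 0.15 over 54209 without ENZ replicate 1.

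ENZ against DMSO in RES-A was the most similar comparison with no shared library. RES-A cells had been kept in ENZ before, so it set ENZ kept against ENZ withdrawn for 18 h, while LNCaP cells received ENZ anew. No region passed the test of a difference between the ENZ minus DMSO effects of the sublines. The limma test of the difference between them called 0 of 41213 regions (0%, smallest adjusted p = 0.976, with 1708 regions at an unadjusted p under 0.05). Without LNCaP ENZ replicate 1 it called 0 of 79238 (0%, smallest adjusted p = 0.575, with 4386 at an unadjusted p under 0.05). In RES-A itself limma called 0 of 120984 regions for ENZ against DMSO (0%), with 7418 (6.13%) at an unadjusted p under 0.05. RES-A had 368 of 67327 regions called with ENZ and not with DMSO (0.547%) and 334 with the reverse (0.496%). In LNCaP the 368 regions had a top-ranked peak at 37.5%, 36.7% and 35.6% with DMSO and at 27.7%, 37.2% and 38.6% with ENZ, and the 334 at 38.9%, 35.0% and 46.4% with DMSO and at 32.0%, 40.1% and 36.5% with ENZ. Both pairs of groups overlapped.

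Large segments of chromosomes were compared by the share of top-ranked peaks that fell in each window of 10 Mb. Limma called 0 of 307 windows (0%, smallest adjusted p = 0.990), and 2 windows had an unadjusted p under 0.05, both higher with ENZ. All ENZ shares lay above all DMSO shares in 6 windows (1.95%) and below them in 8 (2.61%). The smallest p was at chr6:160000001-170000000, which held 0.232%, 0.208% and 0.202% of the peaks with DMSO and 0.266%, 0.242% and 0.226% with ENZ, so that the groups overlapped. The window with the smallest p among those lower with ENZ was chr10:130000001-140000000, with 0.180%, 0.184% and 0.174% for DMSO and 0.172%, 0.168% and 0.162% for ENZ. With 5 libraries, ENZ replicate 1 being left out, limma called 0 of 306 windows (0%, smallest adjusted p = 0.997), with 3 at an unadjusted p under 0.05, all lower with ENZ.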

How the data were processed

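FAIRE-seq was performed on LNCaP and RES-A cells, and 50-bp single-end reads were sequenced. Per the labels and methods, the authors aligned reads to hg19 with BWA 0.7.8-r455, processed them with Picard 1.118 and called peaks per library with MACS2 2.1.0. The options and any control were not given in the sources used here. The deposited lists hold, as the authors' peak caller wrote them, positions, pileup (a signal of overlapping fragments), -log10 of the p-value and q-value, and fold enrichment, a ratio. All listed q were under 0.05. Peaks off chromosomes 1 to 22, X and Y were dropped (304 to 1067 a library).

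Background was recovered as (pileup + 1) / fold - 1, its lowest value in a library, on the assumption that 1 was added to both. It ranks depth and gives no read number. A background under 1 makes that 1 weigh heavily in the fold enrichment of ENZ replicate 1. A region's value in a library was its highest fold enrichment there. Limma 3.58.1 (lmFit, eBayes) ran in R 4.3.3 and was tested on simulated data, with python 3.11.15 for the rest. Named regions were the 5 per direction with the smallest p and no overlap, and the 5 per direction with the highest mean percentile among those called in 1 treatment. For windows, those with a mean of at least 20 peaks were tested with a pseudocount of 0.5 peaks, and the smallest p was named. Alternatives were other peak numbers, overlaps, filters, normalizations, weights, window sizes, a replicate block and leaving out each library. No annotation or genome of hg19 was used, so genes, markers and sequences at the regions are not analysed here. The comparison and lists were chosen with earlier results of these data known.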

Additional observations from a re-analysis of the deposited data

How the results depend on the processing

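The number of regions past the limma threshold was 0 under each single alternative tried (log2 pileup, median centring, regions with peaks in at least 3 libraries, a filter on the mean, library weights, peaks at q of 0.01, trend and robust variances, the replicate block and each library left out), as it was for windows and for the comparison with RES-A. With the replicate block and without ENZ replicate 1 together, a setting chosen after seeing the data, 1 region passed. Deviations of same-numbered libraries correlated at 0.0011, 0.21 and -0.12, and DMSO replicates 1 and 3 correlated best with another number. The part of depth in this was not tested, so pairing by number stayed undecided. The depth of these libraries limits small differences at single regions and any call at weak sites in ENZ replicate 1. Its part in the other results was not tested.

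Counts of separating regions moved most. ENZ-only regions numbered 178, and 1667 when 2 of 3 libraries sufficed, 0 when absence was judged on all deposited peaks, and 416 to 829 with each library left out. DMSO-only regions numbered 541, and 285 with 25000 top-ranked peaks, 847 with all deposited peaks, 2377 when 2 of 3 libraries sufficed, 0 when absence was judged on all deposited peaks, and 823 to 1312 with each library left out. Leaving out a library loosens the rule, which raises the counts. The difference in peak number ran from -56695 to 25179 with each library left out.

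The share with ENZ at DHT-opened regions of RES-A differed from DMSO by -11.0 percentage points as reported. It stayed lower with each library left out, by -12.5 to -8.20. The difference of -17.8 with all deposited peaks rested on ENZ replicate 1, which held a peak at 30.5% of these regions. ENZ replicates 2 and 3, at 86.4% and 84.0%, lay within the DMSO range of 76.1% to 91.2%. In the classes that follow, ENZ replicate 1 was likewise the lowest library over all deposited peaks. There the differences were -23.2 at LNCaP regions lost when ENZ joined DHT, -12.9 at DHT-closed regions of RES-A, -12.4 at regions gained and -14.6 at regions lost with ENZ in RES-A. With each library left out they ran from -12.5 to 7.60 at LNCaP regions gained when ENZ joined DHT, from -3.05 to 3.22 at DHT-closed regions and from -4.12 to 1.31 at regions gained with ENZ in RES-A, in each case turning upward without ENZ replicate 1.

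At DHT-opened regions the median log2 difference of -0.088 became -0.16 with peaks in at least 3 libraries and -0.13 with log2 pileup. Some median log2 differences near 0 turned. At LNCaP regions lost when ENZ joined DHT it was 0.048 with median centring, 0.036 with the filter on the mean, and from -0.11 to 0.017 with each library left out (0.0071 without DMSO replicate 2, 0.012 and 0.017 without ENZ replicates 2 and 3). At those gained it was -0.062 with peaks in at least 3 libraries and from -0.00030 to 0.064 with each library left out. At regions gained with ENZ in RES-A it was -0.053 with peaks in at least 3 libraries, -0.018 with the filter, -0.024 with weights, and from -0.030 to 0.020 with each library left out (-0.025 without DMSO replicate 3). At regions lost with ENZ in RES-A it was -0.032 with peaks in at least 3 libraries. Of the named windows, with all deposited peaks chr6:160000001 had -0.0027, chr4:170000001 -0.045, chr10:130000001 0.063, chr13:110000001 0.000079 and chr17:20000001 0.034, and with 25000 peaks the windows of chromosomes 10 and 17 had 0.012 and 0.039. The cause of these turns was not tested.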
